A study of Mus musculus with 6 samples.

Results

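The 52 genes described here are RNA-binding regulators of pre-mRNA splicing outside the Ptbp family: the CELF, RBFOX, NOVA, ELAVL, MBNL, KHDRBS, hnRNP and SR genes and the related factors Srrm4, Qk, Tia1, Tial1, Khsrp, Matr3, Ewsr1, Tardbp, Esrp1 and Esrp2. They were listed by family with earlier results of these data known, and the list does not hold every hnRNP and SR gene. All 52 were measured among the 18194 genes of the arrays. CAD cells, a mouse neuroblastoma line, were transfected either with the empty RI vector (3 arrays) or with a plasmid expressing miR-124a-2, the microRNA abundant in neurons (3 arrays). The arrays of a group are labelled as biological replicates and both groups are the same cell line grown in DMEM with serum. A bulk array of a transfected culture does not separate cells that took up the plasmid from cells that did not, and fewer cells of a type and less RNA per cell cannot be told apart in it. Each gene is represented by its brightest probe set, the set of short probes with the highest mean over the 6 arrays among those assigned to that gene alone.

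Splicing regulators bind short sequence elements in pre-mRNA and decide which exons the spliceosome joins. SR proteins usually promote the use of the exon they bind, and hnRNP proteins often oppose it, so that the balance of these broadly expressed factors sets a ground state. Neurons add tissue-restricted factors to it: the NOVA proteins, the RBFOX proteins, the neuronal ELAVL (Hu) proteins, several CELF and KHDRBS proteins, and Srrm4 (nSR100), which drives the inclusion of neuronal microexons. Several of these families pair neuronal genes with a paralog used in most tissues, for example Elavl2, Elavl3 and Elavl4 with Elavl1 (HuR).

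The arrays fell into groupings that cross the conditions. The interquartile range of the log2 signals was 3.06 to 3.10 on a narrow set (empty vector replicate 1, miR-124a-2 replicates 1 and 2) and 3.26 to 3.35 on a wide set (empty vector replicates 2 and 3, miR-124a-2 replicate 3). Both arrays numbered 1 also had higher poly-A control signals (5.93 and 5.88 against 5.51 to 5.59) and a larger 3′ minus 5′ difference of the transferrin receptor probe sets (1.34 and 1.55 against 0.95 to 1.09 on the log2 scale). Each grouping holds arrays of both conditions, so values within the array sets, or with a grouping as a block, are given for some genes and roles. Among the others, the log2 fold change of Esrp2 was -0.71 within the narrow set and 0.13 within the wide set. That of Hnrnph2 was -0.44 and 0.28. Of the sympathetic neuron markers, 10 of 11 measured genes lay above the overall median log2 signal of 4.78, as did 3 of 5 epithelial, 2 of 3 oligodendrocyte, 2 of 5 astrocyte, 1 of 5 fibroblast and 1 of 5 macrophage markers. The vesicular monoamine transporter gene Slc18a2 was the sympathetic marker below it.

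None of the 52 regulators passed the test at an adjusted p under 0.05 (limma's moderated test, two-sided, adjusted over all 18194 genes), against 165 genes, 0.907% of all, of which 38 (0.209%) were higher in the miR-124a-2 arrays and 127 (0.698%) lower. An unadjusted p under 0.05 was reached by 5 regulators, Elavl4, Nova1, Elavl2 and Rbfox2 higher and Qk lower, against 10.9% of all genes. The 3 miR-124a-2 arrays did not overlap the 3 empty vector arrays for 8 of the 52 regulators, a share of 15.4%, close to the 16.3% of all genes. Of these 8, Elavl2, Elavl3, Elavl4, Nova1 and Rbfox2 were higher, against 8.50% of all genes, and Qk, Srsf5 and Tra2b lower, against 7.76%. A difference of at least 1.5-fold was measured for 2 regulators, Qk and Elavl2, and for 2.02% of all genes. Across the 52 the median log2 fold change was -0.08, with 36 below 0, while 8328 of all 18194 genes were below 0 and their median was 0.01. With the array set as a block the contrast with all genes was smaller: 28 of the 52 were below 0 with a median of -0.02, against 51.2% of all genes. Without empty vector replicate 3 the median of the 52 was -0.03, and without miR-124a-2 replicate 1 or 2 it was -0.04 or -0.03.

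The test had more calls when the array set was fitted as a block: 546 genes, 3% of all, passed, among them 3 regulators, Elavl4 and Rbfox2 higher and Qk lower. With the poly-A grouping as a block 290 genes (1.59%) passed, and Elavl2 was the 1 regulator among them. Without miR-124a-2 replicate 3 the unblocked test called Qk. The difference between the groups thus depended on the model for these 4 genes, and no model run here called another regulator.

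**Figure D1:**
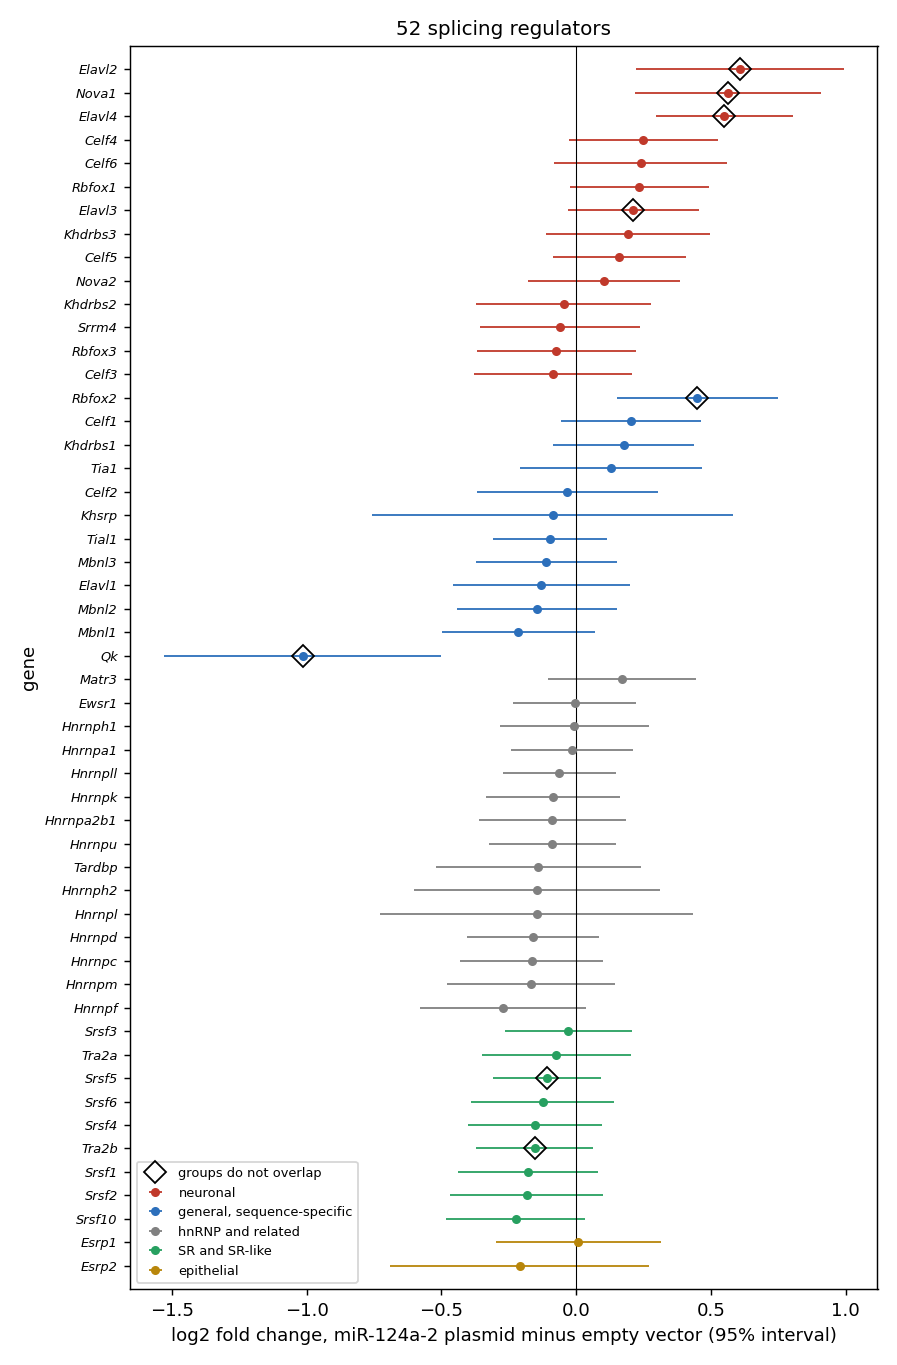
Log2 fold change (miR-124a-2 minus empty vector) of the 52 splicing regulators with 95% confidence intervals, grouped by role. Qk, at -1.02, and Elavl2, Nova1, Elavl4 and Rbfox2, at 0.45 to 0.61, stand farthest from 0. The 9 SR and SR-like genes lie slightly below 0 (7 of 9 with the array set as a block).

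The neuronal ELAVL genes encode Hu proteins, which bind U-rich elements and regulate both splicing and mRNA stability. The log2 signal of Elavl4 was 9.86, 9.79 and 9.88 on the empty vector arrays and 10.24, 10.36 and 10.58 with miR-124a-2. All 3 treated arrays lay above all 3 controls, with means of 9.84 ± 0.05 and 10.39 ± 0.17 (SD, n = 3). The log2 fold change was 0.55 ± 0.11 (SE; 95% confidence interval 0.30 to 0.80), or 1.46-fold, with an adjusted p of 0.0697. It was 0.44 within the narrow array set and 0.74 within the wide one, and 0.59 with an adjusted p of 0.0254 when the set was a block.

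Elavl2 read 9.08, 8.60 and 8.67 with the empty vector and 9.64, 9.12 and 9.41 with miR-124a-2. The lowest treated array stood just above the highest control, empty vector replicate 1. Its log2 fold change was 0.61 ± 0.17 (95% interval 0.22 to 0.99), or 1.52-fold, with an adjusted p of 0.176. With the poly-A grouping as a block the adjusted p was 0.0431, and with the array set as a block 0.137. The log2 fold change was 0.30 within the narrow set and 0.78 within the wide set, and the mean over all 5 probe sets of Elavl2 gave 0.33.

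Elavl3 lay closer together, at 8.06, 8.09 and 8.14 against 8.27, 8.18 and 8.48, with no overlap and a log2 fold change of 0.21 ± 0.11 (adjusted p = 0.546). Elavl1, the paralog found in most tissues, was at 9.05, 9.36 and 9.41 against 8.95, 9.10 and 9.38. Its groups overlapped, and the log2 fold change of -0.13 ± 0.14 had an interval of -0.46 to 0.20. Of its 5 probe sets above the median signal 4 were lower and 1 higher, from -0.355 to 0.0004. Every probe set of Elavl4 and of Elavl3, 3 for each gene, was higher with miR-124a-2, and the 3 probe sets of Elavl2 above the overall median were each higher without overlap.

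**Figure D2:**
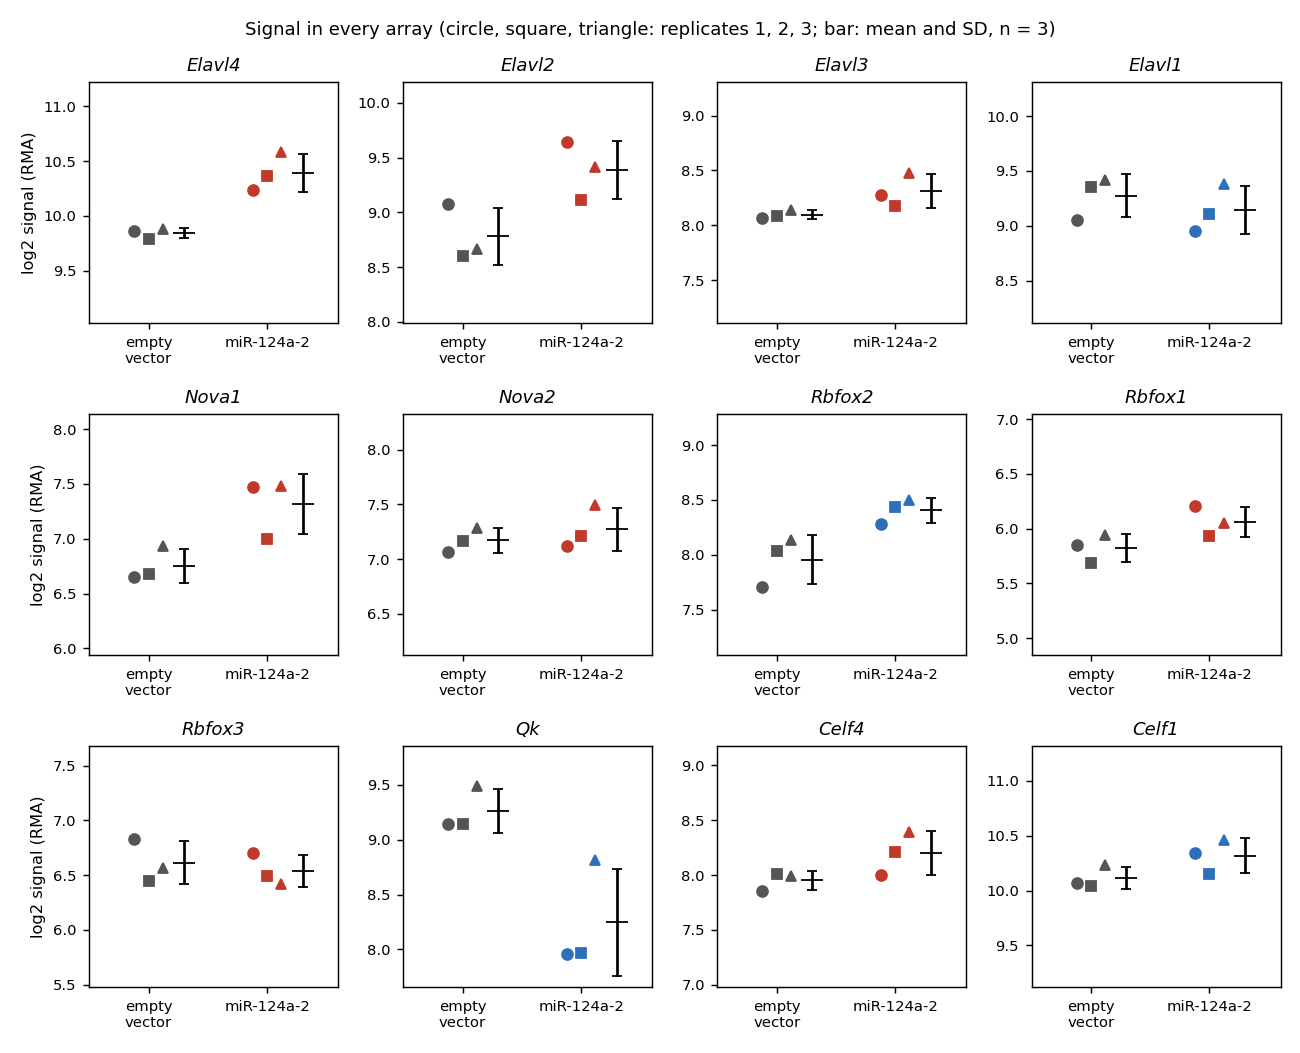
Log2 signal on each of the 6 arrays for 12 splicing regulators, empty vector and miR-124a-2 side by side, with bars for mean and SD (n = 3). For Elavl4 the treated arrays lie between 10.24 and 10.58, above every control array, whereas for Elavl1 the groups overlap.

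The NOVA proteins are neuron-specific and bind clusters of YCAY elements. Nova1 was at 6.65, 6.68 and 6.93 with the empty vector and at 7.47, 7.00 and 7.48 with miR-124a-2. The groups did not overlap, although miR-124a-2 replicate 2 stood close to the highest control. The log2 fold change was 0.56 ± 0.15 (95% interval 0.22 to 0.91), or 1.48-fold, with an adjusted p of 0.160, and it was 0.59 and 0.68 within the narrow and wide array sets. A second probe set of Nova1, below the overall median signal, differed by -0.0047, and the mean of both gave 0.28. Nova2 was at 7.06, 7.16 and 7.28 against 7.12, 7.21 and 7.49, with overlapping groups and a log2 fold change of 0.10 ± 0.12 (adjusted p = 0.865).

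The RBFOX proteins recognise UGCAUG and are found in neurons and muscle, with Rbfox2 also in many other cells. Rbfox2, grouped here as the general paralog, read 7.71, 8.03 and 8.13 with the empty vector and 8.28, 8.44 and 8.50 with miR-124a-2. Every treated array was above every control. Its log2 fold change was 0.45 ± 0.13 (95% interval 0.15 to 0.75), or 1.37-fold (adjusted p = 0.203), and 0.54 with an adjusted p of 0.0314 when the array set was a block. All 4 of its probe sets were higher, by 0.21 to 0.45 on the log2 scale.

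For Rbfox1 and Rbfox3, grouped here as neuronal, the groups overlapped. Rbfox1 was at 5.85, 5.69 and 5.94 against 6.20, 5.93 and 6.05, with a log2 fold change of 0.23 ± 0.11 (adjusted p = 0.520). Its other probe sets above the overall median disagreed, at 0.32 without overlap and -0.10, and the mean over its probe sets gave 0.0482. Rbfox3, whose product is the neuronal nuclear antigen NeuN, was at 6.83, 6.45 and 6.56 against 6.71, 6.49 and 6.42, with a log2 fold change of -0.07 ± 0.13 (adjusted p = 0.921).

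The CELF proteins bind GU-rich elements; Celf1 and Celf2 are found in many tissues and the other members mainly in the nervous system. No CELF gene had non-overlapping groups, and their log2 fold changes ran from -0.09 to 0.25. The largest was that of Celf4, at 7.85, 8.01 and 8.00 against 8.00, 8.21 and 8.39 (0.25 ± 0.12, adjusted p = 0.524). All 3 of its probe sets were higher with miR-124a-2. Celf6, at 6.32, 6.56 and 6.46 against 6.40, 6.89 and 6.77, differed by 0.24 ± 0.14 on the log2 scale (adjusted p = 0.635).

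The general paralog Celf1 was at 10.07, 10.04 and 10.23 against 10.34, 10.15 and 10.46, a log2 fold change of 0.20 ± 0.11 (adjusted p = 0.609). Its probe sets disagreed: of the 5 above the overall median, 2 were higher and 3 lower, from -0.29 to 0.20. Celf2 was at 6.19, 6.31 and 6.59 against 6.34, 6.10 and 6.55, and Celf3 at 8.08, 8.23 and 8.24 against 7.92, 8.02 and 8.35. Both overlapped between the groups, with log2 fold changes of -0.03 ± 0.15 and -0.09 ± 0.13. Celf5 was low, at 4.84, 4.64 and 4.63 against 4.99, 4.77 and 4.83, and differed by 0.16 ± 0.11 (adjusted p = 0.704).

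The KHDRBS (Sam68-like) proteins bind U(U/A)AA repeats and control neurexin splicing in brain. Khdrbs1, the ubiquitous Sam68, was at 10.47, 10.32 and 10.41 against 10.73, 10.38 and 10.61, with a log2 fold change of 0.18 ± 0.12 (adjusted p = 0.687). The neuronal genes Khdrbs2 (4.78, 4.34 and 4.43 against 4.60, 4.53 and 4.28) and Khdrbs3 (3.85, 3.94 and 4.15 against 4.29, 3.93 and 4.30) both lay under the overall median signal, so a change of theirs may not be measurable on these arrays. Srrm4 was at 6.33, 6.27 and 6.33 with the empty vector and at 6.53, 6.05 and 6.18 with miR-124a-2. Its treated arrays lay on both sides of the controls, and the log2 fold change was -0.06 ± 0.13 (adjusted p = 0.941).

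Over the 14 neuronal regulators 10 were above 0 and 4 below, with a median log2 fold change of 0.20, 4 without overlap between the groups (28.6%) and none that passed the test. Of all 18194 genes 9866 were above 0, and 16.3% did not overlap. Over the 18 alternatives that kept all 14 genes, 10 to 12 were above 0 and the median was 0.14 to 0.24. The replicate and poly-A blocks and the trended priors are among the 18 and leave each log2 fold change as it is. Taken array by array, the median of the 14 genes relative to each gene's own mean was -0.12, -0.13 and -0.06 with the empty vector and 0.12, -0.01 and 0.22 with miR-124a-2. The sympathetic marker list also holds Stmn2, Gap43, Snap25 and Tubb3, which are not particular to sympathetic neurons. The summed signal of its 11 measured genes, on the log2 scale, ran from 13.42 to 13.52 with the empty vector and from 13.65 to 13.72 with miR-124a-2. Its part in the higher neuronal regulators was not tested. The summed astrocyte markers, at 7.25 to 7.42 and 7.24 to 7.50, and the summed epithelial markers, at 7.70 to 8.13 and 7.95 to 8.12, overlapped between the groups. So did the fibroblast, macrophage and oligodendrocyte sums.

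**Figure D3:**
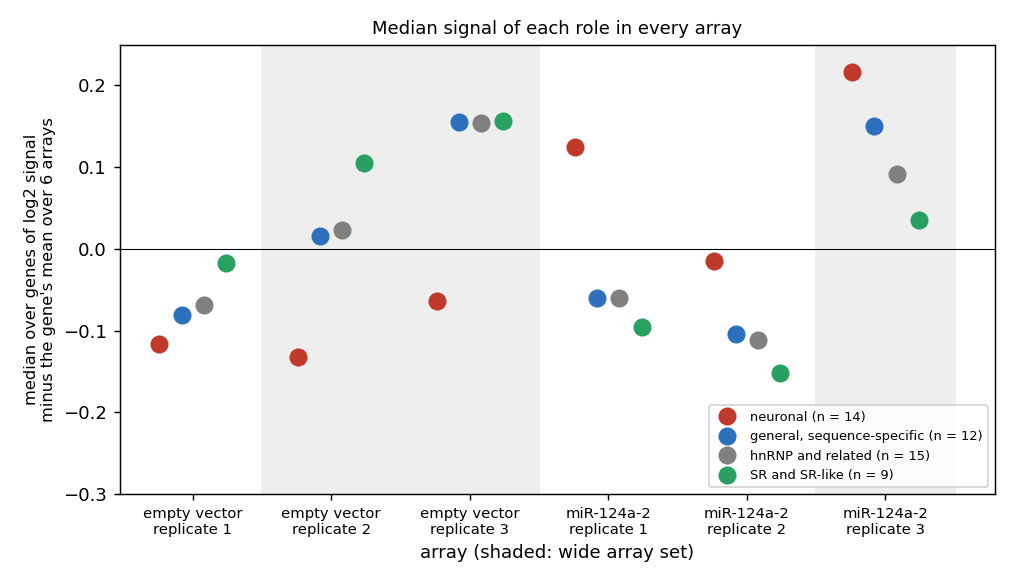
Median, over the genes of each role, of the log2 signal minus the gene's mean over the 6 arrays; shading marks the wide array set. The neuronal medians are -0.12, -0.13 and -0.06 on the empty vector arrays and 0.12, -0.01 and 0.22 on the miR-124a-2 arrays, while the other roles also shift between the array sets.

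The 4 families with both kinds of gene were used to compare neuronal with general paralogs. The median log2 fold change was 0.21 over the 11 neuronal paralogs and 0.18 over the 5 general ones, a difference of 0.04. That difference depended on the probe set taken for a gene: it was 0.20 with the mean over a gene's probe sets and 0.33 when the most variable probe set stood for the gene.

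Within arrays, each neuronal gene was set against its general paralog in 15 pairs, using the log2 difference of the pair minus its mean in the empty vector arrays. The Elavl4 and Elavl1 pair stood at 0.24, -0.14 and -0.10 with the empty vector and at 0.72, 0.69 and 0.63 with miR-124a-2, a difference of 0.68. The Elavl3 and Elavl1 pair differed by 0.34, and the Celf3 and Celf1 pair by -0.29. These 3 pairs did not overlap between the groups. Each had an exact two-sided permutation p of 0.1, the smallest that 3 against 3 arrays allow, or 0.5 after adjustment over the 15 pairs. The 2 higher ones share the values of Elavl1 and are not independent. Of the 15 differences 9 were above 0.

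The remaining pairs overlapped, with Khdrbs2 against Khdrbs1 at -0.22 and Khdrbs3 against Khdrbs1 at 0.02. Elavl2 against Elavl1 differed by 0.74, with an exact permutation p of 0.2; empty vector replicate 1 stood at 0.52, within the treated range of 0.50 to 1.18. In the RBFOX family the direction was the other way, with Rbfox3 against Rbfox2 at -0.52 (exact permutation p = 0.2) and Rbfox1 against Rbfox2 at -0.22 (exact permutation p = 0.4).

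Promoter windows of the neuronal regulators were read from RefSeq (GRCm38.p6, 250 bases before to 50 after each annotated start), where 44 of the 52 regulators had at least 1 window. Of 14 motifs searched on both strands, the E-box CAGCTG, a form bound by neuronal basic helix-loop-helix factors, was singled out after the matches had been seen. It was present in 9 of 12 neuronal genes with a window (Celf3, Celf5, Celf6, Elavl2, Elavl3, Elavl4, Khdrbs2, Nova1 and Rbfox1), in 0 of 10 general genes, 0 of 13 hnRNP genes and 1 of 9 SR genes. By window it occurred in 43.8% of those of neuronal regulators and in 16.3% of all 32851 windows. Genes with several starts have more chances of a match, and windows of nearby starts overlap, so the same match can be counted repeatedly. The other motifs, with the share of all windows holding each, were the E-boxes CAGATG (17.2%) and CAGGTG (20.2%), the RE1 parts TTCAGCACC (0.371%) and GGACAG (22.2%), TGACGTCA (1.79%) and its core TGACG (20.8%), and TATAAA (13.6%). The rest were CCGGAAG (8.86%), CCAAT (37.4%), GGGCGG (35.7%), GCCATNTT (6.05%), TTTCGCGC (0.323%) and GCGCATGCG (1.75%); TGACG lies within TGACGTCA. TGACG, likewise singled out, was found in 8 of 9 SR genes and 9 of 13 hnRNP genes. It was found in 6 of 12 neuronal and 2 of 10 general genes, and TTCAGCACC in 0 of the 44. Of all 27025 genes with a window, 18.3% held CAGCTG, 23.0% TGACG and 0.433% TTCAGCACC. The neuronal genes that hold CAGCTG include both Elavl4, among the higher ones, and Celf3, whose groups overlapped. Shown are the stretches around the match, in capitals, for the 3 non-overlapping genes in which it lies before the annotated start of its window. Each runs 5′ to 3′ on the gene's minus strand.
Elavl3, chr9:22052024-22052103: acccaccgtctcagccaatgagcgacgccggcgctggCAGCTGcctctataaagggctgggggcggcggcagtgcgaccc
Elavl4, chr4:110287531-110287610: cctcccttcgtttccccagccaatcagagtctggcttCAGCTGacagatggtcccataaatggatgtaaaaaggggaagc
Nova1, chr12:46818918-46818997: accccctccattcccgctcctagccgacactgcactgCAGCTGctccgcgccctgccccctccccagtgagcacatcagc
The match begins 43 bases before the annotated start of the Elavl3 window and 193 bases before that of the Nova1 window. For Elavl4 it begins 62 and 46 bases before 2 annotated starts. Each stretch lies inside the RefSeq span of its gene, whose 5′ end is at 22052146 (Elavl3), 110351939 (Elavl4) or 46819480 (Nova1). The matches are thus not upstream of the whole gene. A match is a run of letters and says nothing of binding in CAD cells.

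The general, sequence-specific regulators (12 genes) had 4 above 0 and 8 below, with a median log2 fold change of -0.09. The sign of that median turned with the array set as a block (6 above and 6 below, median 0.03) and without empty vector replicate 3 (6 and 6, median 0.01). Qk had the largest difference among them. It encodes quaking, a STAR-family protein that binds ACUAA elements and is best known for splicing in glia and muscle. Qk was at 9.15, 9.14 and 9.49 with the empty vector and at 7.96, 7.97 and 8.81 with miR-124a-2. All 3 treated arrays were below all 3 controls, and replicate 3 was the least low. The means were 9.26 ± 0.20 and 8.25 ± 0.49 (SD, n = 3). The log2 fold change was -1.02 ± 0.23 (SE; 95% interval -1.53 to -0.50), or 2.02-fold lower, with an adjusted p of 0.0906.

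Within the narrow array set the log2 fold change of Qk was -1.18 and within the wide set -0.51. With the set as a block it was -0.84 with an adjusted p of 0.0331, and without miR-124a-2 replicate 3 it was -1.30 with an adjusted p of 0.00347. A second probe set of Qk above the overall median differed by -0.85, with overlapping groups, and its other 5 probe sets, all below that median, ran from -0.54 to 0.20. The mean over the 7 probe sets gave -0.34.

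**Figure D4:**
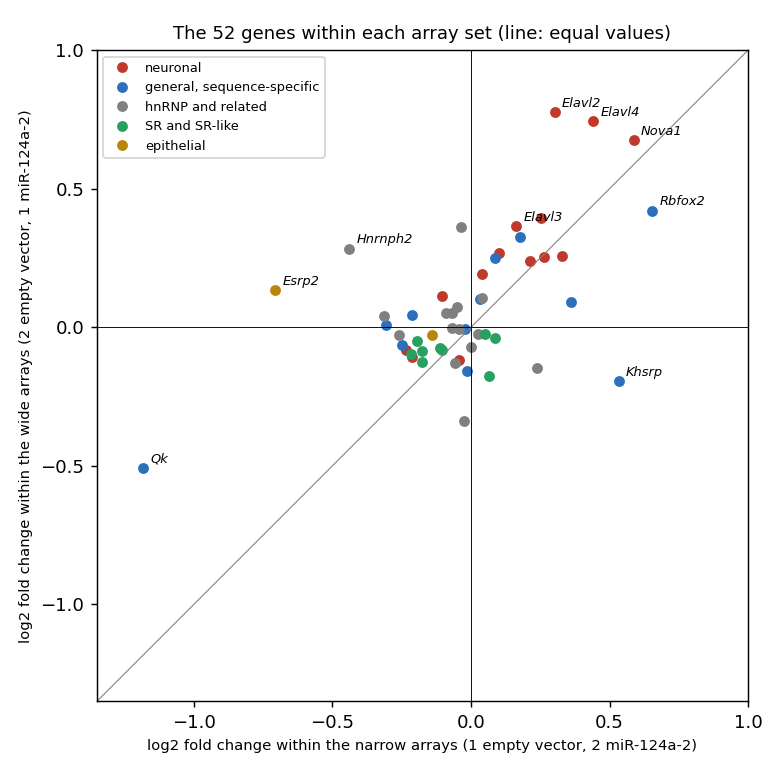
Log2 fold change of each of the 52 regulators within the narrow array set against that within the wide set. Elavl4 (0.44 and 0.74), Nova1 (0.59 and 0.68) and Rbfox2 (0.65 and 0.42) lie above 0 on both axes, and Qk (-1.18 and -0.51) below 0 on both.

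The MBNL proteins oppose fetal splicing patterns in muscle and brain. All 3 MBNL genes were below 0, from -0.21 to -0.11, although their median was 0.01 within the wide array set, and none passed the test. Mbnl1 was at 8.95, 8.88 and 9.09 against 8.67, 8.62 and 8.99, with overlapping groups and a log2 fold change of -0.21 ± 0.13 (adjusted p = 0.634). Mbnl2 had probe sets of both signs, and Mbnl3 lay below the overall median signal. The granule proteins Tia1 and Tial1, which act at weak 5′ splice sites, had log2 fold changes of 0.13 and -0.10. Of the 4 probe sets of Tia1 above the median signal 2 were higher and 2 lower, from -0.16 to 0.13. Khsrp, a KH-domain protein needed for a neuronal exon of Src, was singled out after its values were seen. Its log2 fold change over all arrays was -0.09 ± 0.29 (adjusted p = 0.967). It was 0.53 within the narrow set and -0.20 within the wide set. Empty vector replicate 1, the only control in the narrow set, read 7.42 for Khsrp, against 8.53 and 8.57 for the other controls.

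Among the 15 hnRNP and related genes 14 were below 0, with Matr3 the 1 above it, from -0.27 to 0.17 with a median of -0.09. None passed the test (adjusted p from 0.541 to 0.993) and none had non-overlapping groups. Over the alternatives 10 to 14 were below 0, with 10 when the array set was a block, where the median was -0.02, and 10 without miR-124a-2 replicate 2. The largest difference was that of Hnrnpf, which binds G-runs, at 10.40, 10.81 and 10.85 against 10.31, 10.45 and 10.49 (-0.27 ± 0.14, adjusted p = 0.541). Empty vector replicate 1 lay within the treated range of Hnrnpf, and its 4 probe sets each had a lower treated mean. For Hnrnpa2b1, named after its values were seen, 2 further probe sets differed by -0.36 and -0.31 without overlap, while the brightest differed by -0.09. Hnrnpa1, Hnrnpk and Hnrnpll each had probe sets above the overall median that differed in sign.

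Each of the 9 SR and SR-like genes had a log2 fold change below 0, from -0.22 to -0.03, with a median of -0.15, and none passed the test. With the array set as a block 7 of the 9 were below 0 and the median was -0.09, and 7 were below 0 when the most variable probe set stood for each gene. Array by array the median of the 9 genes relative to each gene's mean was -0.02, 0.11 and 0.16 with the empty vector and -0.10, -0.15 and 0.04 with miR-124a-2, so miR-124a-2 replicate 3 lay above empty vector replicate 1. Over their 31 probe sets above the overall median 27 were lower and 4 higher, 8 of them lower without overlap. Of all 20188 such probe sets 10098 were lower, and 9.62% were lower without overlap. Probe sets of 1 gene measure the same transcripts and are not independent.

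Srsf10, which represses splicing when dephosphorylated, was at 9.43, 9.59 and 9.66 against 9.23, 9.27 and 9.50 (log2 fold change -0.22 ± 0.11, adjusted p = 0.546). Tra2b, an activator of GAA-rich exons, was at 10.67, 10.69 and 10.70 against 10.49, 10.46 and 10.64. Its groups did not overlap, and the log2 fold change was -0.15 ± 0.10 (adjusted p = 0.656). Srsf5, named after its values were seen, was at 11.14, 11.14 and 11.19 against 11.04, 11.01 and 11.09, also without overlap. For Srsf6, likewise, the 3 probe sets other than the brightest differed by -0.32, -0.42 and -0.33, each without overlap, against -0.12 for the brightest. Srsf3, Srsf10, Tra2a and Tra2b had probe sets of both signs.

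**Figure D5:**
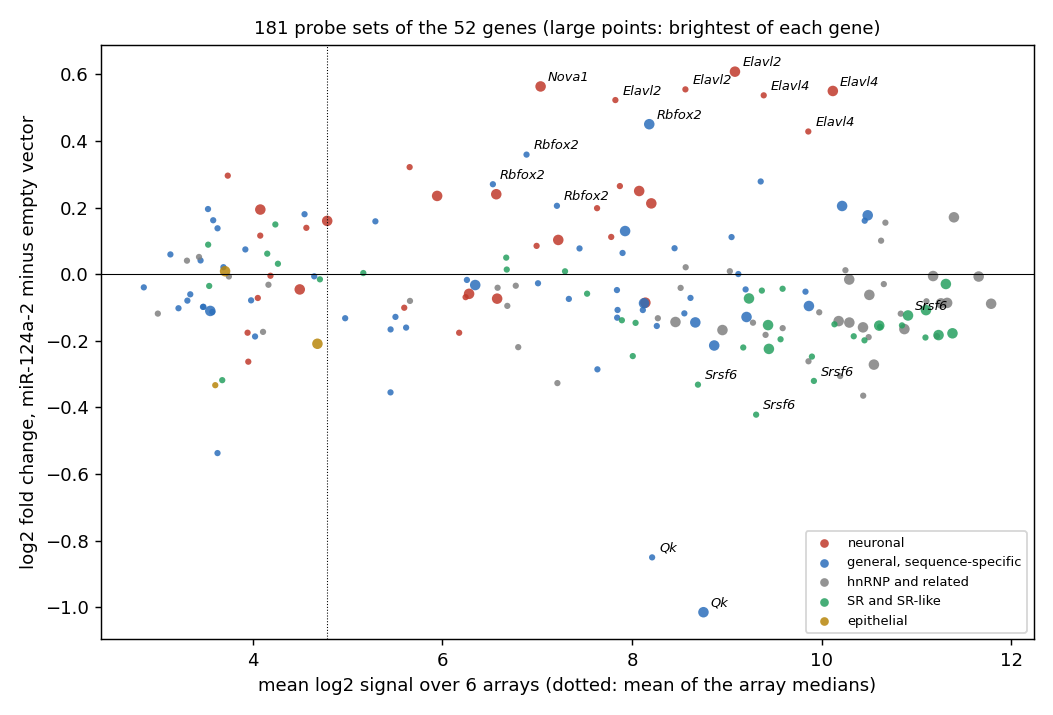
Log2 fold change of each probe set of the 52 regulators against its mean log2 signal; the dotted line marks the overall median of 4.78 and large points the brightest probe set of a gene. The labelled probe sets of Elavl4, Elavl2 and Rbfox2 lie above 0, both labelled ones of Qk lie at -0.85 and -1.02, and 27 of the 31 SR probe sets right of the line lie below 0.

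The epithelial regulators Esrp1 and Esrp2 drive epithelial exons and are not markers of neurons. The mean signals of Esrp1 (3.71) and Esrp2 (4.68) over the 6 arrays both lay below the overall median, and neither gene passed the test (log2 fold changes of 0.01 and -0.21).

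The machinery these regulators act on was described with a list of 46 core spliceosome and SR kinase genes, 43 of which were measured. None of the 43 passed the test. Of the 43, 34 were below 0 (28 to 37 over the alternatives), against 45.8% of all genes, with a median of -0.07. An unadjusted p under 0.05 (limma) was reached by 2 of them, against 10.9% of all genes. The groups did not overlap for 7 of the 43 (16.3%), against 16.3% of all genes. Those 7 were lower, and 7.76% of all genes were lower without overlap. Prpf4, a U4/U6 snRNP protein, was at 7.30, 7.45 and 7.46 against 6.92, 7.19 and 7.16 (-0.32 ± 0.11, adjusted p = 0.300), and its groups did not overlap. Snrpb2, of the U2 snRNP, differed by -0.27 ± 0.10, Sf3a2 by -0.21 ± 0.09 and the Sm protein gene Snrpg by -0.18 ± 0.09, with adjusted p from 0.312 to 0.548. The excluded Ptbp genes, in the same fit, had log2 fold changes of -1.24 for Ptbp1 (adjusted p = 0.00978), 1.01 for Ptbp2 (adjusted p = 0.0697) and -1.07 for Ptbp3 (adjusted p = 0.0358).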

How the data were processed

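Affymetrix expression arrays of 6 CAD cultures were used. The deposited values are log2 signals made by the authors with RMA, per the submitters' processing notes; its version and the probe definitions are not given in the sources used here. They were used as deposited, with no counts behind them, so precision rests on the number of arrays. Platform annotation of 2016 gave 1 gene to 34958 of 45101 probe sets, several to 932 and none to 9211, and 18194 genes were tested. Fits used limma 3.58.1 (lmFit, eBayes) in R 4.3.3 with no block, two-sided, adjusted by Benjamini-Hochberg over all genes, at 0.05. The fit was also run on simulated data with independent noise for each gene. Those data held no array groupings, so that run says nothing of their effect on the calls. A gene is called dim where both group means are under the overall median of 4.78.

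Values by array are given for the 14 regulators with the smallest p, the CELF, RBFOX, NOVA, ELAVL and KHDRBS families and Srrm4, and up to 4 core genes. Other regulators are given by count, or named where probe sets of the gene above the median differ in sign. The members, lists and marker sets were chosen with earlier results of these data known. Promoter windows came from RefSeq.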

Additional observations from a re-analysis of the deposited data

How the results depend on the processing

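The count of all genes passing, 165, was 546 with the array set as a block, 290 with the poly-A grouping, 99 after median centring, 315 after quantile and 287 after cyclic loess normalisation. It was 270 with a trended prior, 266 with a robust trended prior, 51 with the probe set of largest spread, 366 at a threshold of 0.10, and 0 with replicates 2 and 3 only (limma; 1824 at an unadjusted p under 0.05). Leaving out 1 array gave 0 to 343: 0 without empty vector replicate 2 or 3 (limma; 1285 and 1313 at an unadjusted p under 0.05), 61 without empty vector replicate 1, and 13, 46 and 343 without miR-124a-2 replicates 1, 2 and 3. The count of regulators passing, 0, was 3 with the array set, 1 with the poly-A grouping, 1 after quantile and 1 after cyclic loess normalisation, 2 with either trended prior, 2 at the 0.10 threshold, and 0 to 1 leaving out 1 array. The core list had 0 in every setting run. The paralog difference of 0.04 became 0.20 with the mean over probe sets and 0.33 with the largest spread, and -0.03 to 0.07 leaving out 1 array.

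The labels do not state whether arrays of the same replicate number were paired, and the arrays did not settle it. Same-numbered arrays' deviations correlated at 0.54, 0.00 and 0.55, and differently numbered ones at -0.58 to 0.31. Empty vector replicate 2 correlated best with miR-124a-2 replicate 3, and miR-124a-2 replicate 2 with empty vector replicate 1. The other arrays correlated best with their own number. With the replicate block 457 genes passed, 3 of them regulators (2 higher, 1 lower).

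Adjusted p over the alternatives ran from 0.0197 to 0.351 for Elavl4, 0.00347 to 0.555 for Qk, 0.0277 to 0.601 for Elavl2, 0.0314 to 0.736 for Rbfox2 and 0.0552 to 0.552 for Nova1. Of 587 values for 31 named regulators 544 kept direction and side of the threshold, 14 passed it and 29 reversed, none of them called. The cause was not tested. The replicate and poly-A blocks and the trended priors leave each log2 fold change as it is, so direction could not change with them. With the mean over probe sets Celf1 was -0.0358 and Rbfox3 0.0503. With the largest spread Celf1 was -0.29, Rbfox1 -0.10, Rbfox3 0.30, Tia1 -0.0273, Hnrnpll 0.0089, Srsf3 0.0497 and Tra2b 0.15. With the array set Celf2 was 0.0663, Celf3 0.0048, Srsf3 0.0253 and Tra2a 0.013. Khdrbs2 was 0.0215 with replicates 2 and 3 only, Srsf3 0.0105 after quantile normalisation, and Hnrnpa1 0.0118 without cross-hybridising probe sets. Leaving out 1 array gave Celf2 -0.14 to 0.0821, Celf3 -0.21 to 0.0019, Rbfox3 -0.16 to 0.0357, Nova2 -0.0074 to 0.18, Khdrbs2 -0.13 to 0.0863, Srrm4 -0.20 to 0.0425, Tia1 -0.0111 to 0.23, Hnrnpa1 -0.0603 to 0.0493 and Srsf3 -0.11 to 0.0157. Signals near background limit what could be measured. Khdrbs2, Khdrbs3, Mbnl3 and Esrp1 were dim, and Esrp2 lay below the overall median only in its mean over all arrays and its miR-124a-2 mean.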
